A study of Mus musculus with 12 samples.

Results

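The genes described here are 9 members of the hypoxia-inducible factor (HIF) pathway, namely Hif1a, Egln1, Egln3, Vegfa, Bnip3, Bnip3l, Ddit4, Ankrd37 and Adm. They were taken by gene symbol from a table of 24454 genes, and each of the 9 was found once. With a filter that kept genes with a mean of at least 10 normalized counts over the 12 libraries, 8 of the 9 were tested among 11476 genes, and the exception was Adm, which is listed at 0 in every library. HIF-1 is a transcription factor whose α subunit, encoded by Hif1a, is made continuously and destroyed while oxygen is present. Prolyl hydroxylases, among them the products of Egln1 (PHD2) and Egln3 (PHD3), mark the α subunit for destruction, and both hydroxylase genes are themselves HIF targets, so that the pathway restrains its own activity. Targets raised by HIF act in blood vessel growth (Vegfa, Adm), in the removal of mitochondria (Bnip3, Bnip3l) and in the restraint of mTORC1 (Ddit4), and bone marrow is known as a tissue with oxygen-poor regions.

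All libraries were made from acute myeloid leukemia (AML) blasts of mouse origin. Fetal liver cells of wildtype (WT) or STAT3β-deficient (Δβ) mice had been transformed with a retrovirus that carries MLL-AF9 and a Venus reporter, and were grown in immunodeficient NSG mice. Venus+ blasts were sorted from the spleen (SP) and the bone marrow (BM) of diseased animals, and poly-A RNA was sequenced from 3 libraries in each of the groups WT SP, Δβ SP, WT BM and Δβ BM. The comparisons ask whether loss of the β isoform of STAT3 goes with different HIF pathway transcript levels in either organ, and whether blasts of SP and BM differ. Every group shares the MLL-AF9 oncogene and the NSG host, which lacks lymphocytes of its own, and the labels do not say how many independently transformed cultures or animals the replicates stand for. The p-values therefore measure only the spread between these libraries, which may be technical. The Stat3 row sums both isoforms, so that the genotype labels could not be checked with it.

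The libraries held 9001051 to 13859727 reads on genes, and 1 read was worth 0.775 to 1.17 normalized counts, the unit used below, which is a gene count divided by the size factor of its library. Values of a group are given in the order of replicates 1, 2 and 3. Replicates correlated across genes with Pearson's r of 0.897 to 0.964 in WT SP and of 0.929 to 0.968 in the other groups. WT SP replicate 3 stood apart from WT SP replicates 1 and 2. As an example, Mpo, the myeloperoxidase of immature granulocytes, counted 5947, 5256 and 40590 in these WT SP libraries (normalized counts). The value of WT SP replicate 3 lay inside the Δβ SP range of 25770 to 53210 and above the WT BM range of 5172 to 14560. All 10 markers of AML blasts passed the filter, and their summed level was 44070 to 80990 normalized counts. All 10 markers of mature neutrophils passed it too, with summed levels of 54590 to 239800. In every library except Δβ SP replicate 1 the neutrophil sum was above the blast sum. None of 10 erythroid markers passed it, with summed levels of 5.43 to 19.3, and 4 of them, the globin genes, were listed at 0 in every library. Eno1, a glycolytic gene that every cell uses, was listed at 0 too, so these values of 0 do not show absence. Of 7 lymphoid markers 1 passed, and their summed level was 7.89 to 155.5. Of the 10 macrophage markers 3 passed, with summed levels of 2745 to 8229. The 7 endothelial markers, of which 2 passed, summed to 771 to 2544. The 7 stromal markers, of which 1 passed, summed to 31.0 to 543.8, and the 7 megakaryocyte and platelet markers, of which 3 passed, to 48.4 to 109.8. Fewer cells of a type and less RNA per cell cannot be told apart in such libraries.

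Per kilobase of transcript, Bnip3l had the highest median level of the 9 genes over the 12 libraries with 445 normalized counts per kb, followed by Vegfa with 334, Hif1a with 262, Egln1 with 174 and Ddit4 with 173. Bnip3 with 72.2, Ankrd37 with 41.5 and Egln3 with 24.4 normalized counts per kb were lower, and Adm was listed at 0. Over the 12 libraries the ranges of each pair of neighbours in this order overlapped, down to Egln3. The genes differed more in how steady they were. Hif1a spanned a factor of 1.73 between its lowest and its highest library and Egln1 a factor of 1.91, whereas Ddit4 spanned 7.61 and Egln3 12.6.

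**Figure D1:**
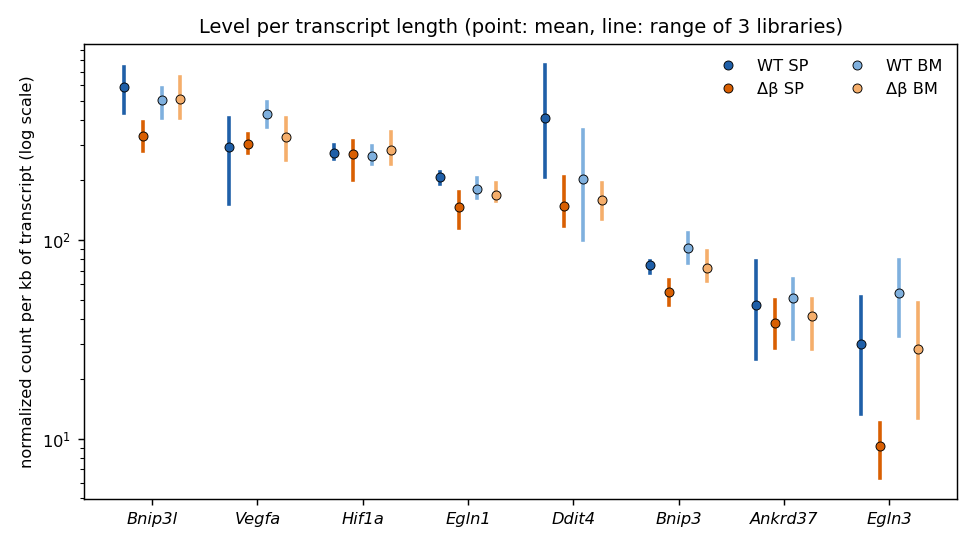
Normalized counts per kb of transcript on a log axis for the 8 genes above 0, ordered by their median over the 12 libraries, with a point for the mean and a line for the range of the 3 libraries of WT SP, Δβ SP, WT BM and Δβ BM. Bnip3l is highest with a median of 445 and Egln3 lowest with 24.4, and the Egln3 range is lowest in Δβ SP.

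In SP, most of the hypoxia targets had lower average levels in Δβ than in WT blasts, while Hif1a itself differed little. Of the 8 tested genes 7 had a lower estimate, as had 5955 of all 11476 tested genes. The 5 furthest below were the oxygen sensor genes Egln1 and Egln3, the mitophagy receptor genes Bnip3 and Bnip3l, and Ddit4. They stood between 0.355 and 0.73 of the WT level. None of the 8 tested genes passed an adjusted p of 0.05 by limma, against 0.105% of all tested genes. By unadjusted p under 0.05, 5 of 8 were lower in Δβ and 0 were higher, where 8.96% of all tested genes were lower. This count was 4 of 8 with TMM, edgeR and DESeq2, where 901, 1172 and 1538 of all 11476 tested genes were lower. Bnip3 had an unadjusted p of 0.0535 (limma with TMM), 0.0589 (edgeR) and 0.0509 (DESeq2). In limma without WT SP replicate 1, Bnip3 had an unadjusted p of 0.0995 and Ddit4 one of 0.149. All 3 Δβ libraries lay under all 3 WT libraries for 4 of 8 genes, against 9.37% of all tested genes. The median log2 fold change of the 8 genes was -0.48, and that of all tested genes was -0.01. The genes were chosen with earlier results of these data known, so these comparisons describe them and are no independent test. With 3 libraries against 3, an exact permutation test of a single gene cannot give a two-sided p below 0.1.

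**Figure D2:**
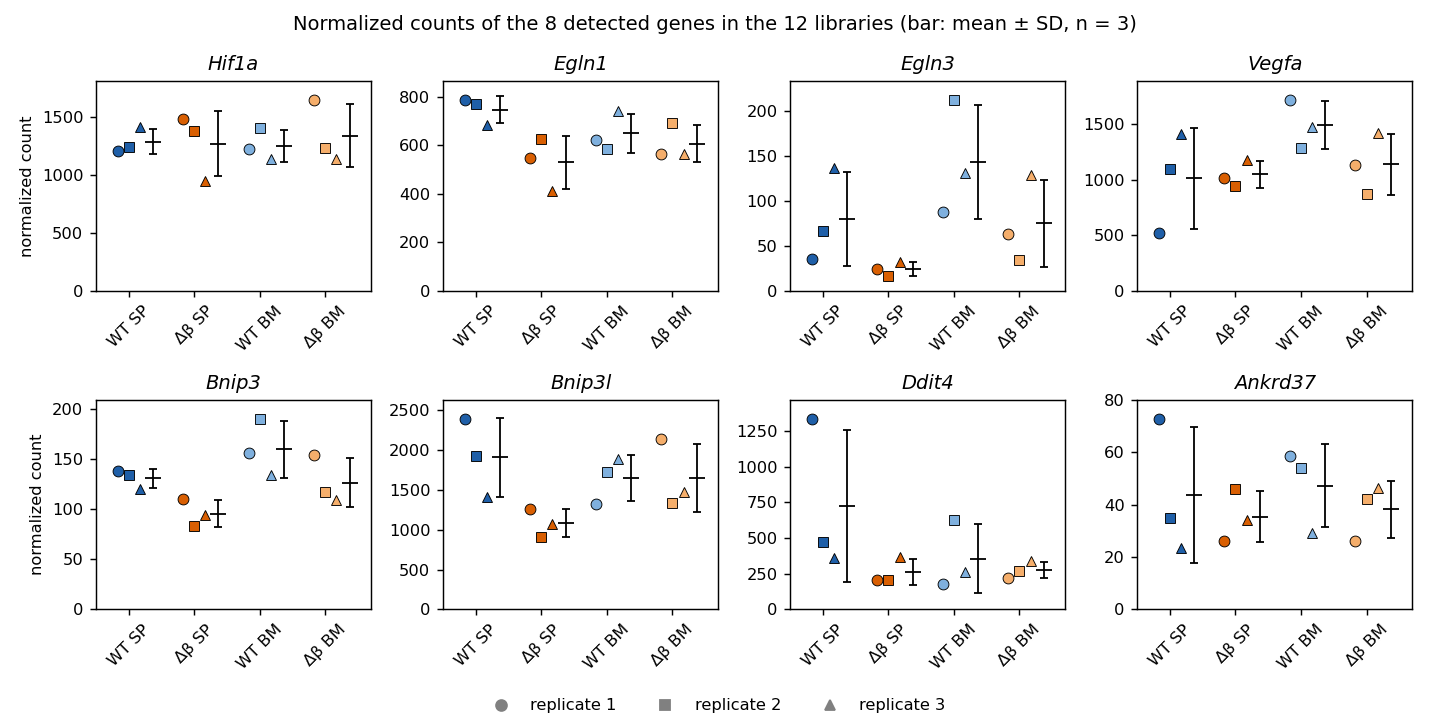
Normalized counts (vertical axes, each starting at 0) of the 8 genes above 0 in WT SP, Δβ SP, WT BM and Δβ BM, with 1 point per library, shaped by replicate number, and a bar for mean ± SD (n = 3). In SP the Δβ points lie below all WT points for Egln1, Egln3, Bnip3 and Bnip3l, and in BM the groups overlap for every gene.

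Among the oxygen sensor genes, Egln1 encodes PHD2, the main hydroxylase that sets HIF-1α levels in normal oxygen. Its level was 785, 769 and 684 normalized counts in WT SP and 548, 626 and 412 in Δβ SP. The groups did not overlap, and Δβ SP replicate 3 was the lowest library. The log2 fold change was -0.51 (standard error 0.16, 95% confidence interval -0.88 to -0.15, limma adjusted p = 0.235). Egln3, a hydroxylase gene that is strongly raised by HIF in many cell types, reached 35.3, 66.8 and 137 normalized counts in WT SP against 24.8, 16.8 and 32.0 in Δβ SP, from 15 to 135 reads. Again the groups did not overlap, but WT SP replicate 1 was only slightly above Δβ SP replicate 3, and the WT libraries spread widely. The log2 fold change was -1.50 (standard error 0.57, interval -2.75 to -0.24, limma adjusted p = 0.284). Hif1a had 1207, 1241 and 1412 normalized counts in WT SP and 1481, 1378 and 949 in Δβ SP, and the Δβ values enclosed the WT values. Its log2 fold change was -0.04 (standard error 0.19, interval -0.45 to 0.37, limma adjusted p = 0.928). This is the transcript, and HIF-1α protein, which oxygen controls, was not measured here.

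Bnip3l (also called NIX) and Bnip3 encode receptors on the outer mitochondrial membrane that tether mitochondria to the forming autophagosome. Bnip3l counted 2394, 1926 and 1407 in WT SP against 1264, 905 and 1078 in Δβ SP (normalized counts). The 3 WT libraries were all higher than the 3 Δβ libraries, and WT SP replicate 3 was closest to them. The log2 fold change was -0.80 (standard error 0.24, interval -1.32 to -0.28, limma adjusted p = 0.222), or 0.575 of the WT level. Bnip3l was the 1 gene of the 8 that passed in another analysis. DESeq2 gave an adjusted p of 0.0406 where 4.19% of all tested genes were called, and limma without WT SP replicate 3 gave a log2 fold change of -1.001 and an adjusted p of 0.0207 where 16.4% were called, while edgeR gave 0.197. A transcribed processed pseudogene, Bnip3l-ps on chromosome 12, is annotated, and how the counting divided reads between such copies is not given in the sources used here. Bnip3, whose median per kb was 72.2 against 445 for Bnip3l, had 138, 135 and 120 normalized counts in WT SP and 110, 82.9 and 93.95 in Δβ SP. The groups did not overlap, and the log2 fold change was -0.45 (standard error 0.20, interval -0.89 to -0.02, limma adjusted p = 0.324).

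Ddit4 (REDD1) encodes a stress-induced inhibitor of mTORC1. Its level was 1336, 470 and 363 normalized counts in WT SP and 208, 205 and 364 in Δβ SP. WT SP replicate 1 was far above every other library, and the groups met at WT SP replicate 3 and Δβ SP replicate 3. The log2 fold change was -1.29 (standard error 0.53, interval -2.45 to -0.13, limma adjusted p = 0.302), and it was -0.73 without WT SP replicate 1. Vegfa, the main growth factor of blood vessels, had 521, 1098 and 1413 normalized counts in WT SP and 1019, 944 and 1176 in Δβ SP. The Δβ libraries lay inside the WT range. Its log2 fold change was 0.16 (standard error 0.31, interval -0.53 to 0.85, limma adjusted p = 0.81), and it turned to -0.26 without WT SP replicate 1. Ankrd37, a small ankyrin repeat gene known as a HIF-1 target, had 72.9, 34.97 and 23.3 normalized counts in WT SP and 26.4, 45.9 and 34.2 in Δβ SP. The groups overlapped, and the log2 fold change was -0.17 (standard error 0.44, interval -1.15 to 0.80, limma adjusted p = 0.862). Ankrd37 overlaps Ufsp2 and Lrp2bp on the opposite strand, and the strand setting of the counting is not given in the sources used here, so reads of these genes cannot be told apart with certainty. Adm, the vasodilator peptide adrenomedullin, had 0 reads in each of the 12 libraries, where 0 reads allow up to 3 reads, or 2.33 to 3.50 normalized counts. The glycolytic enzyme gene Eno1, which every cell uses, was also listed at 0, so that a value of 0 in this table does not show that a gene was silent.

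**Figure D3:**
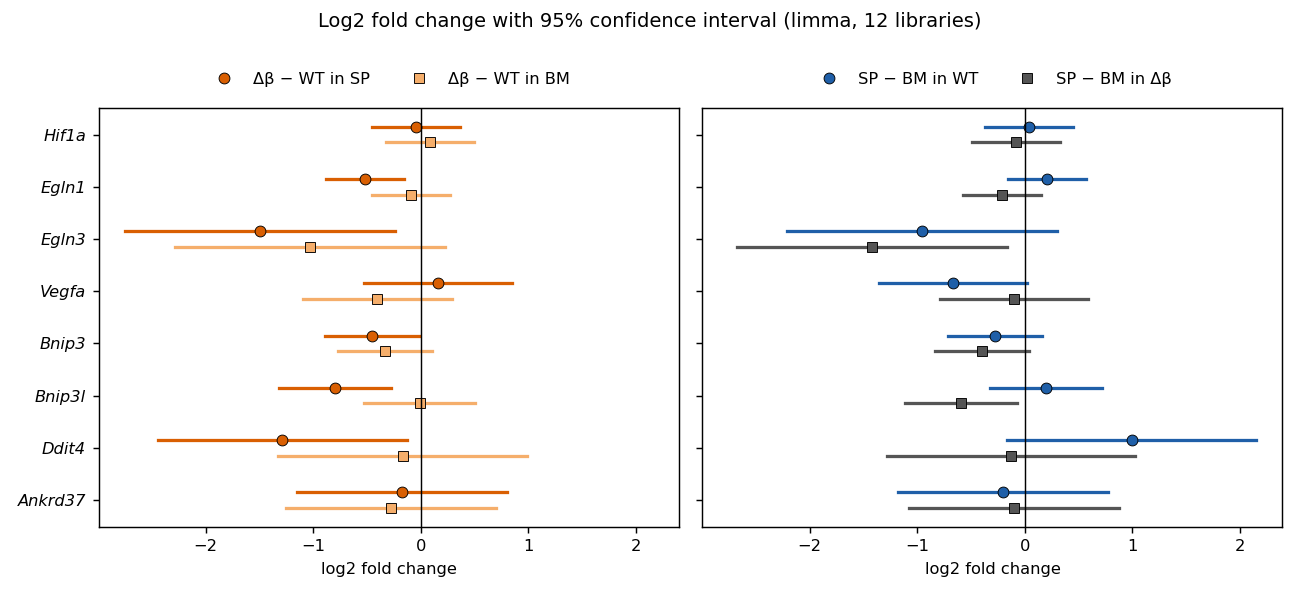
Log2 fold changes (horizontal axes) of the 8 tested genes with 95% confidence intervals from limma, for Δβ minus WT in SP and BM on the left and for SP minus BM in WT and Δβ blasts on the right. On the left the SP intervals of Egln1, Egln3, Bnip3, Bnip3l and Ddit4 lie below 0 while all 8 BM intervals include 0, and on the right those of Egln3 and Bnip3l in Δβ lie below 0, each before adjustment for the 11476 tests.

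In BM, the groups of the 2 genotypes overlapped for all 8 tested genes. The largest average difference was again that of Egln3, and Bnip3l and Egln1, lower in Δβ SP, had nearly the same average level in both genotypes. None of the 8 genes passed an adjusted p of 0.05 by limma, against 0.0697% of all tested genes, and by edgeR and DESeq2 the count was also 0. By unadjusted p under 0.05, 0 of 8 were lower in Δβ, against 1.33% of all tested genes. All 3 Δβ libraries lay under all 3 WT libraries for 0 of 8 genes, against 4.13% of all tested genes. As in SP, 7 of the 8 genes had a lower estimate in Δβ, and so had 6277 of all 11476 tested genes. The median log2 fold change of the 8 genes was -0.22, and that of all tested genes was -0.02. Egln3 had 87.3, 212 and 131 normalized counts in WT BM and 63.1, 33.9 and 128 in Δβ BM, a log2 fold change of -1.03 (standard error 0.57, interval -2.29 to 0.22, limma adjusted p = 1). Only Δβ BM replicate 3 reached the WT range.

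Vegfa had 1714, 1280 and 1473 normalized counts in WT BM and 1129, 871 and 1419 in Δβ BM, with a log2 fold change of -0.40 (standard error 0.31, interval -1.09 to 0.29). Bnip3 had 156, 190 and 134 normalized counts in WT BM and 154, 117 and 109 in Δβ BM, with a log2 fold change of -0.34 (standard error 0.20, interval -0.77 to 0.10). Both genes had 1 Δβ library inside the WT range. Bnip3l had 1325, 1721 and 1886 normalized counts in WT BM and 2140, 1330 and 1478 in Δβ BM, and the interval of its log2 fold change of -0.01 reached from -0.53 to 0.51. Egln1 had 621, 584 and 740 normalized counts in WT BM and 562, 693 and 565 in Δβ BM, and the interval of its log2 fold change of -0.10 reached from -0.46 to 0.27. Differences of the sizes inside these intervals were not excluded. Hif1a had 1219, 1401 and 1133 normalized counts in WT BM and 1644, 1232 and 1134 in Δβ BM (log2 fold change 0.08, interval -0.33 to 0.49). Ddit4 had 176, 629 and 260 normalized counts in WT BM and 222, 270 and 338 in Δβ BM (log2 fold change -0.17, interval -1.33 to 0.99). Ankrd37 had 58.5, 54.1 and 29.2 normalized counts in WT BM and 26.1, 42.1 and 46.6 in Δβ BM (log2 fold change -0.28, interval -1.25 to 0.70). The groups overlapped for each of these genes.

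Whether the genotype difference itself differed between SP and BM was tested as an interaction. The estimate was furthest from 0 for Ddit4 with -1.12 (standard error 0.74, limma adjusted p = 0.926), but it was -0.56 without WT SP replicate 1, where that of Egln3 was -0.93. For Bnip3l it was -0.79 (standard error 0.33, interval -1.52 to -0.05, limma adjusted p = 0.926). For Egln1 it was -0.42 (standard error 0.23, limma adjusted p = 0.926), and for Egln3, which was lower on average in both organs, it was -0.46 (standard error 0.81, limma adjusted p = 0.945). None of the 8 genes passed an adjusted p of 0.05, against 0% of all tested genes, and 1 of 8 had an unadjusted p under 0.05, against 3.2%. The count past the adjusted threshold was 0 by edgeR and DESeq2 too. A difference between the organs in the response to STAT3β loss was thus not shown for any of the 8 genes.

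Between the organs, Δβ blasts of the SP had lower average levels of all 8 genes than Δβ blasts of the BM. In WT blasts 4 were higher and 4 lower. Of all 11476 tested genes, 5691 were lower in SP in Δβ blasts and 5739 in WT blasts. In Δβ blasts the clearest differences were those of Egln3 and Bnip3l. Egln3 had the 24.8, 16.8 and 32.0 normalized counts of Δβ SP against 63.1, 33.9 and 128 in Δβ BM, without overlap, a log2 fold change of -1.42 (standard error 0.57, limma adjusted p = 1). Bnip3l in Δβ SP also lay below all 3 Δβ BM libraries, with a log2 fold change of -0.59 (standard error 0.24, limma adjusted p = 1). In Δβ blasts the libraries that share a number across the organs deviated together. Within these pairs Egln1, Egln3, Bnip3 and Bnip3l were lower in SP in 3 of 3. Hif1a, Vegfa and Ddit4 were lower in 2 of 3, and Ankrd37 in 1 of 3. For Egln3 and Bnip3l no other count was possible, because their groups did not overlap. The share of all tested genes lower in 3 of 3 pairs was not computed, so these counts are a description only. The Egln3 pairs differed by -1.31, -0.97 and -1.97 on the log2 scale, and the Bnip3l pairs by -0.76, -0.56 and -0.45. Past an adjusted p of 0.05 there were 0 of 8 genes by limma, edgeR and DESeq2, against 0% of all tested genes by limma. By unadjusted p under 0.05 there were 2 of 8, against 1.77%, and all 3 SP libraries lay under all 3 BM libraries for 2 of 8, against 4.51%.

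In WT blasts the groups of both organs overlapped for each of the 8 genes, where 11.5% of all tested genes did not overlap. None of the 8 genes had an unadjusted p under 0.05, against 8.27% of all tested genes, and 0 passed the adjusted threshold by limma, edgeR and DESeq2, against 0% of all tested genes by limma. The estimates furthest from 0 were those of Ddit4, with a log2 fold change of 0.99 (standard error 0.53, interval -0.16 to 2.15) for SP against BM, Egln3 with -0.96 (standard error 0.57, interval -2.21 to 0.30) and Vegfa with -0.67 (standard error 0.31, interval -1.35 to 0.02). Vegfa thus had its highest mean in WT BM, with 1489 ± 217 normalized counts (SD, n = 3) against 1010 ± 452 in WT SP, 1047 ± 119 in Δβ SP and 1140 ± 274 in Δβ BM. These estimates rested on WT SP replicate 1. Without it they were 0.43 for Ddit4, -0.48 for Egln3 and -0.25 for Vegfa, and that of Ankrd37 was then furthest from 0 with -0.64. The WT SP range of Vegfa was wide enough to hold all the Δβ SP libraries.

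Among the 8 genes, the log2 levels of Bnip3 and Bnip3l were most alike over the 12 libraries, with Pearson's r of 0.719, followed by Bnip3 and Egln3 with 0.664 and Vegfa and Egln3 with 0.631. Ddit4 and Vegfa ran most opposite with -0.57. These values describe 12 libraries that share 4 groups and their depth. Among all 11476 tested genes, those with a pattern most like that of Bnip3l included Rlf (r = 0.954) and Acpp (0.941). Egln1 was most like Fam213b (0.924), Maea (0.904) and Cbfb (0.875), and Egln3 most like Spin1 (0.937), Ano6 (0.924) and Tbc1d2b (0.916). Bnip3 was most like Kdsr (0.893), Zhx1 (0.87) and B4galt1 (0.863). For Ddit4 the genes were Usp30 (0.93), Pip5k1c (0.902) and Scyl3 (0.887). For Vegfa they were Zbtb14 (0.925), Hnrnpll (0.922) and Bcorl1 (0.922). Hif1a was most like Mrpl10 (0.906), Arl8b (0.838) and Mospd3 (0.826), and Ankrd37 most like Rbbp6 (0.861), Arl5b (0.839) and Fam78a (0.832). No other member of the 9 was among the leading 3 of any member.

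HIF binds the core letters ACGTG or GCGTG, so the promoters of the genes with an unadjusted p under 0.05 in SP are shown where RefSeq's table (GRCm38.p6) holds one. Each run is the part of the 250 bases before the start in that table that lies in no annotated exon, read 5′ to 3′ on the strand of the gene, and capitals mark ACGTG and GCGTG on either strand (the opposite strand reads CACGT and CACGC).
Egln1, chr8:124949325-124949504, minus strand: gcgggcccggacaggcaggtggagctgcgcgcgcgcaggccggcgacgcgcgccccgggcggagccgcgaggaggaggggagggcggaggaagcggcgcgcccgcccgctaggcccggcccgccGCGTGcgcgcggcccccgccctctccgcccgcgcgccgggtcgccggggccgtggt
Egln3, chr12:54203875-54204124, minus strand: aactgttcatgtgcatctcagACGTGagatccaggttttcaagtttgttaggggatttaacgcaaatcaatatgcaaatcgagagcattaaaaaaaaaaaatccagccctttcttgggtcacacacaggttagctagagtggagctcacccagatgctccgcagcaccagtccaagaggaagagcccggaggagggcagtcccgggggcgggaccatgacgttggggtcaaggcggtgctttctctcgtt
Bnip3, chr7:138909520-138909756, minus strand: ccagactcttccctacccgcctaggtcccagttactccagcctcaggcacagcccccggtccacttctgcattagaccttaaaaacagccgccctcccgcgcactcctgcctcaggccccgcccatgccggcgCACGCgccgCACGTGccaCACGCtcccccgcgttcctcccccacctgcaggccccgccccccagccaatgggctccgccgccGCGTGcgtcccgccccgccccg
Ddit4, chr10:59951835-59952020, minus strand: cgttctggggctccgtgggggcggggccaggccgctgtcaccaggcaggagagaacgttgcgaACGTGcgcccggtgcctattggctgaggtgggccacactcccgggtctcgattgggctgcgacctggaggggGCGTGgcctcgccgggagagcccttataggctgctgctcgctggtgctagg
The Bnip3 run held 5 matches within 237 bases, the first 117 bases before the start, where CACGTG counts as a match on each strand. Ddit4 held 2 in its 186 bases, and Egln3 held 1, which began 229 bases before the start. The Egln1 run of 180 bases held 1, and its whole 250-base window held 2. Of the 8 genes with an entry, 8 had a match in at least 1 of their 250-base windows, Vegfa in the second of its windows. Counted by window, 8 of 9 held a match. The first Vegfa window, which precedes the gene, held 0. Its second window, at bases 46025164 to 46025413 of chromosome 17, lies inside the span of the gene. Over all 32851 promoter windows of this length, 38.6% held at least 1 match, 16.6% held ACGTG and 28.2% held GCGTG. A match of 5 letters is a description of the sequence and no binding site was measured. The windows of Hif1a and Ankrd37 precede starts that lie inside the spans of these genes, at bases 73907617 to 73907866 of chromosome 12 and 45999851 to 46000100 of chromosome 8, and held 3 and 4 matches.

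The genes lie apart on the genome. Egln3 (RefSeq NM_028133) is on chromosome 12 from 54178981 to 54203874 and Hif1a (NM_010431) on the same chromosome from 73901324 to 73947554. Egln1 (NM_053207) lies on chromosome 8 from 124908587 to 124949254 and Ankrd37 (NM_001039562) on chromosome 8 from 45996908 to 46000414. Bnip3 (NM_009760) lies on chromosome 7 from 138890836 to 138909506, and Adm (NM_009627) also on chromosome 7 from 110627657 to 110629820. Bnip3l (NM_009761) is on chromosome 14 from 66985238 to 67008877, Vegfa (NM_009505) on chromosome 17 from 46016993 to 46032377 and Ddit4 (NM_029083) on chromosome 10 from 59949675 to 59951770. The annotation places Gm49321 over Hif1a on the same strand and Gm15283 on the opposite strand, Gm45507 and Gm18258 opposite Bnip3, and Gm28863 opposite Adm, all without a row of their own in the table. Hif1a and Adm are on the plus strand and the other genes on the minus strand.

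The surrounding pathway was described with 6 lists, which share genes and hold 123 genes together, of which 100 were tested. The lists include the 9 genes described above, so their counts are not independent of the results given for those genes. Like those genes, the lists were chosen with earlier results of these data known. In SP, 68 of the 100 had a lower average in Δβ, as had 5955 of all 11476 tested genes, and the median log2 fold change of the 100 was -0.17. None passed an adjusted p of 0.05 by limma in any comparison. By unadjusted p under 0.05 in SP, 17 were lower and 2 higher, where 1028 and 680 of all 11476 tested genes were. Without the genes described above, 12 of 92 were lower and 2 higher by unadjusted p in SP. DESeq2 called 6 of the 100 in SP, where it called 4.19% of all tested genes, and edgeR called 0. The 6 were Hmox1 (DESeq2 adjusted p = 0.00052), Nrp2 (0.00203), Car12 (0.00263), Pfkfb4 (0.0163), Slc16a3 (0.0348) and Bnip3l (0.0406). Limma without WT SP replicate 3 called 17 of the 100, where it called 16.4% of all tested genes. Both shares were near those of all genes. In BM, 68 were lower on average, as were 6277 of all tested genes, with a median of -0.07, and 2 were lower and 1 higher by unadjusted p, where 153 and 144 of all tested genes were. The other genes named here are, for each list, those with the largest average rise and fall, and those behind counts of up to 5, chosen after their values were seen.

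Of the oxygen sensing and HIF components, 16 of 18 were tested, with medians of the log2 fold change of -0.115 in SP and -0.03 in BM. The 2 lower by unadjusted p in SP were Egln1 and Egln3, where 8.96% of all tested genes were lower. The asparaginyl hydroxylase gene Hif1an, whose product blocks the coactivator contact of HIF-1α, went the other way. Its level was 617, 653 and 439 normalized counts in WT SP and 650, 732 and 762 in Δβ SP, and 676, 653 and 544 in WT BM against 783, 824 and 921 in Δβ BM. The groups did not overlap in BM, where the log2 fold change was 0.43 (standard error 0.16, limma adjusted p = 1), and in SP, where they overlapped, it was 0.34 (standard error 0.16, limma adjusted p = 0.337). The largest average rise in SP was that of Hif3a (0.51, limma adjusted p = 0.534) and the largest falls beside the members were those of the coactivator gene Crebbp in SP (-0.39, limma adjusted p = 0.427) and of Cited2, which competes with HIF-1α for that coactivator, in BM (-0.34, limma adjusted p = 1).

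Of the HIF target genes outside glycolysis, 30 of 42 were tested, with 23 lower on average in Δβ SP and a median of -0.18, against -0.10 in BM. Of all 11476 tested genes, 5955 were lower on average in SP. By unadjusted p in SP, 8 of the 30 were lower and 1 higher, where 1028 and 680 of all tested genes were. The 8 included Egln1, Egln3, Bnip3, Bnip3l and Ddit4, described above. The 1 higher gene was Car12, which encodes a carbonic anhydrase of the cell surface and is the largest average rise of the list. Its level was 26.2, 47.7 and 57.9 normalized counts in WT SP and 163.5, 151 and 120 in Δβ SP, without overlap, a log2 fold change of 1.76 (standard error 0.37, limma adjusted p = 0.152), while in BM it was 0.24. The largest average fall was that of the heme oxygenase gene Hmox1, with 3925, 1402 and 314 normalized counts in WT SP and 299.9, 167 and 227 in Δβ SP. Its log2 fold change was -2.41 (standard error 0.72, limma adjusted p = 0.223) in SP and -1.02 (limma adjusted p = 1) in BM. WT SP replicate 3 was close to the Δβ libraries. Plin2, of lipid droplets, had the largest average rise in BM (0.38, limma adjusted p = 1).

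Of the glycolytic HIF targets, 20 of 21 were tested. On average 14 were lower in Δβ SP and 17 in Δβ BM, with medians of -0.25 and -0.16. Of all 11476 tested genes, 5955 were lower on average in SP and 6277 in BM, and 8.96% and 1.33% by unadjusted p. The 4 lower by unadjusted p in SP were the lactate exporter gene Slc16a3 (-0.80, limma adjusted p = 0.234), Pfkfb4 (-0.71, adjusted p = 0.205), Gpi1 (-0.51, adjusted p = 0.295) and Pkm (-0.38, adjusted p = 0.30). In BM it was Pkm (-0.36, limma adjusted p = 1). The largest average fall in SP was that of the glucose transporter gene Slc2a3 (-1.28, limma adjusted p = 0.378), with 1444, 2000 and 273 normalized counts in WT SP and 405, 323 and 418 in Δβ SP, so that WT SP replicate 3 lay below all Δβ libraries. Pfkm, of muscle-type phosphofructokinase, had the largest average rise in SP (0.51, limma adjusted p = 0.368) and in BM (0.12). Gapdh had the largest average fall in BM (-0.66, limma adjusted p = 1), but at 40.6 to 163 normalized counts its level was low for this enzyme, and a gene with many near-identical pseudogenes is uncertain in such counts.

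Of the mitophagy receptors and adaptors, 17 of 18 were tested. Of these, 16 had a lower average in Δβ SP, as had 5955 of all 11476 tested genes. The median of the list was -0.41 in SP, against 12 lower genes and a median of -0.04 in BM. Of all tested genes, 1028 were lower and 680 higher by unadjusted p in SP. By that measure, 5 of the 17 were lower and 0 higher. Besides Bnip3 and Bnip3l these were Sqstm1 (-0.70, limma adjusted p = 0.259), which encodes the cargo adaptor p62, the autophagosome protein gene Map1lc3b (-0.73, adjusted p = 0.295) and the kinase gene Ulk1 that starts autophagy (-0.60, adjusted p = 0.297). Sqstm1 had 3759, 2602 and 1615 normalized counts in WT SP and 1649, 1334 and 1676 in Δβ SP, and WT SP replicate 3 lay inside the Δβ range. The largest average fall was that of Pink1 in SP (-0.87, limma adjusted p = 0.448) and of Optn in BM (-0.68, limma adjusted p = 1), and the largest rises were those of Phb2 in SP (0.24, limma adjusted p = 0.523) and Fundc1 in BM (0.17, limma adjusted p = 1).

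Of the VEGF and adrenomedullin ligands and receptors, 9 of 16 were tested, with medians of 0.16 in SP and -0.16 in BM. Nrp2, a coreceptor of VEGF and semaphorins, had the largest fall in both organs. Its level was 244, 202 and 422 normalized counts in WT SP and 58.9, 14.6 and 8.54 in Δβ SP, and 266, 69.9 and 159 in WT BM against 53.3, 14.0 and 7.25 in Δβ BM. The groups did not overlap in either organ, and the log2 fold changes were -3.74 (standard error 0.80, limma adjusted p = 0.152) in SP and -2.94 (standard error 0.80, limma adjusted p = 1) in BM. Vegfb was the 1 gene higher by unadjusted p in SP (0.68, limma adjusted p = 0.312), where 680 of all 11476 tested genes were. Flt4 had the largest average rise in SP (0.92, limma adjusted p = 0.523), at 2.28 to 33.7 normalized counts, and Nrp1 in BM (0.96, limma adjusted p = 1).

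Of the mTORC1 brake and complex genes, 14 of 15 were tested, with 7 lower and 7 higher on average in Δβ SP and medians of -0.06 in SP and -0.03 in BM. The 2 lower by unadjusted p in SP were Ddit4 and Rptor, which encodes the scaffold of mTORC1 (-0.31, limma adjusted p = 0.305). By that measure 8.96% of all tested genes were lower. Beside Ddit4, the largest average fall was that of Sesn2 in SP (-0.51, limma adjusted p = 0.542) and of Mlst8 in BM (-0.22, limma adjusted p = 1), and the largest rises were those of Sesn3 in SP (0.43, limma adjusted p = 0.708) and Tbc1d7 in BM (0.24, limma adjusted p = 1).

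**Figure D4:**
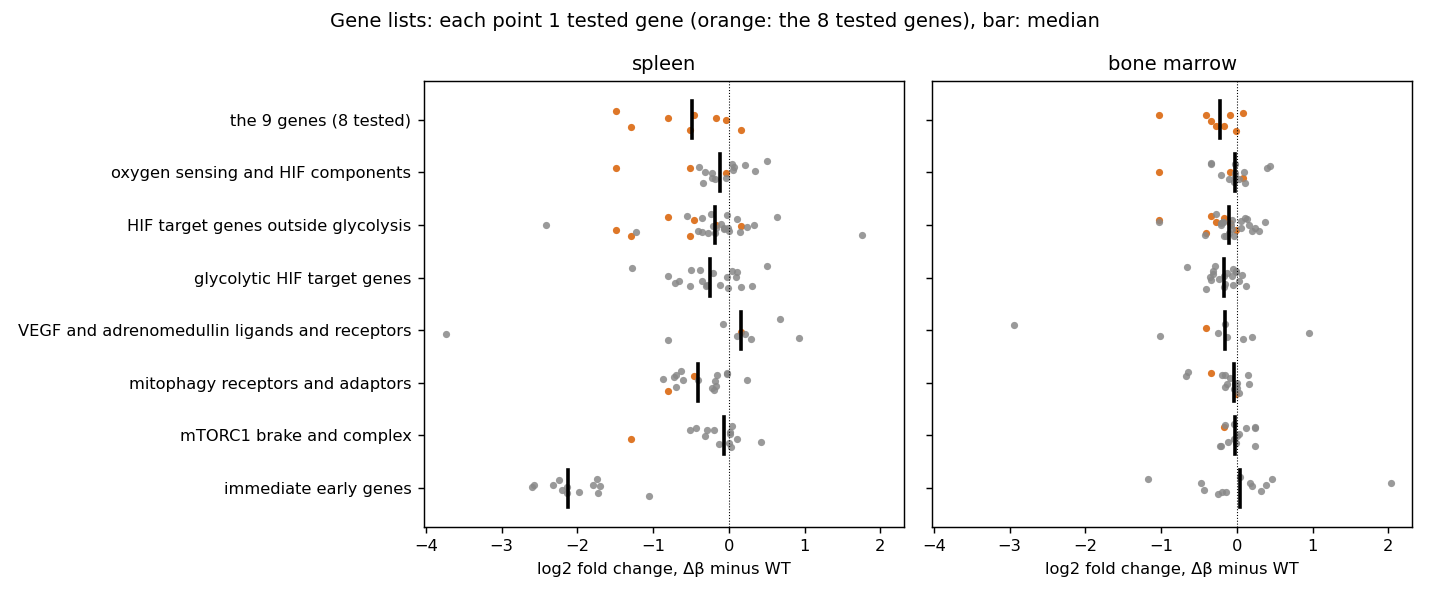
Log2 fold change of Δβ against WT (horizontal axes) in SP on the left and BM on the right, with 1 point per tested gene of each list, the 8 tested HIF pathway genes in orange and a bar at the median. The median of the mitophagy list is -0.41 in SP and -0.04 in BM, and that of the 13 immediate early genes is -2.13 in SP and 0.05 in BM.

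Other features of the WT SP libraries moved with these results. The 13 immediate early genes, such as Fos and Dusp1, genes induced within minutes of a stimulus, summed to between 75990 and 86400 normalized counts in WT SP but to between 11900 and 43240 in Δβ SP. Their sums in BM were 12800 to 62340 for WT blasts and 15330 to 36050 for Δβ blasts. All 13 had a lower average in Δβ SP than in WT SP (median -2.13 on the log2 scale), as had 5955 of all 11476 tested genes. By unadjusted p under 0.05, 10 of the 13 were lower, where 8.96% of all tested genes were. The 10 markers of mature neutrophils summed to 132000, 196400 and 73520 normalized counts in WT SP and to between 54590 and 72200 in Δβ SP. Their sums in BM were 96530 to 239800 for WT blasts and 87120 to 129700 for Δβ blasts. Both sums were higher in every WT SP library than in every Δβ SP library, the neutrophil sum narrowly with 73520 against 72200. Without overlap in SP, 1 of the 10 neutrophil genes and 8 of the 13 immediate early genes were lower in Δβ. Of all tested genes 9.37% were. The 7 megakaryocyte and platelet markers also summed higher in every WT SP library, with 85.9 to 91.3 normalized counts against 58.9 to 60.9 in Δβ SP. The 7 endothelial markers ran the other way, with sums of 1071 to 1201 in WT SP and 1433 to 2544 in Δβ SP. Their part in the lower hypoxia target levels of Δβ SP was not tested.

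The choice of WT SP libraries changed the size and the adjusted p of the estimates. Egln1, Egln3, Bnip3, Bnip3l and Ddit4 had lower averages in Δβ SP whichever library was left out. For Egln1, Egln3, Bnip3 and Bnip3l this could not come out otherwise, because their SP groups did not overlap. It is therefore no test of these genes. Without WT SP replicate 3 the log2 fold changes were -0.58 for Egln1 (limma adjusted p = 0.0549), -1.003 for Egln3 (adjusted p = 0.228), -0.52 for Bnip3 (adjusted p = 0.13) and -1.66 for Ddit4 (adjusted p = 0.0621), and 1884 genes in all passed the threshold instead of 12. Egln3 was highest in that library, and its estimate became -1.97 without WT SP replicate 1. Over all alternatives the adjusted p of Bnip3l in SP ranged from 0.0207 to 0.579, that of Egln1 from 0.0549 to 0.538, that of Egln3 from 0.0794 to 0.633, that of Ddit4 from 0.0621 to 0.708 and that of Bnip3 from 0.13 to 0.682.

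**Figure D5:**
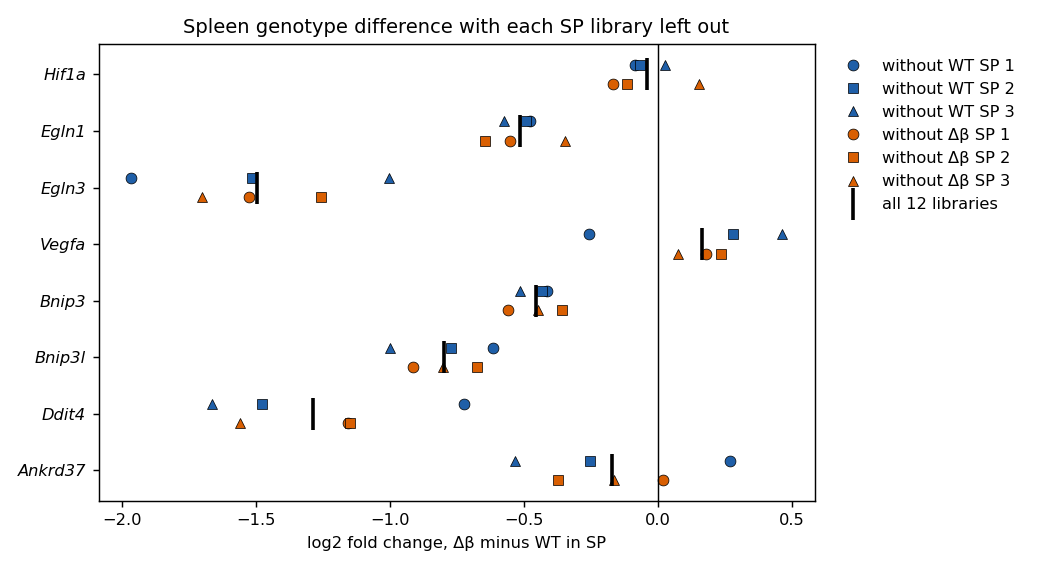
Log2 fold change of Δβ against WT in SP (horizontal axis) of the 8 tested genes with all 12 libraries (black bar) and with each WT SP library (blue) or Δβ SP library (orange) left out. The estimates of Egln1, Egln3, Bnip3, Bnip3l and Ddit4 stay below 0, while those of Hif1a, Vegfa and Ankrd37 fall on both sides of 0. For Egln1, Egln3, Bnip3 and Bnip3l no other sign was possible, as their SP groups do not overlap.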

How the data were processed

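Per the file headers and the submitters' processing notes, which name FastQC, STAR, featureCounts and DESeq2 and the builds GRCm38 and mm10 without versions, the authors deposited for each gene and library a signal value, a read count divided by the size factor of the library, for poly-A libraries of sorted blasts. Dividing by the smallest nonzero value of a library gave whole reads for 100% of values at a tolerance of 1e-06. Depth was 9001051 to 13859727 reads on genes, and floors from it cover counting error only. The confidence intervals are those of limma and rest on the spread between libraries. A further 6 columns that no sample label describes were not used.

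Groups and replicate numbers came from the labels. Genes with a mean of at least 10 were tested with limma 3.58.1 (lmFit, eBayes with trend, R 4.3.3) on log2 of the value plus a pseudocount of 1, which understates changes of low genes, with 4 group means and Benjamini-Hochberg adjustment over 11476 genes at 0.05. The procedure was also run on simulated data, and nothing about its power for the changes described here is taken from that run. The members and the lists were chosen with earlier results of these data known. Genes named beyond the members are, per list and organ, the largest average rise and fall, the 3 most alike over the 12 libraries, and those behind small counts, and 1 gene that this rule names is not reported here. Transcript lengths are those of the RefSeq transcript in GENCODE M21, gene positions and promoters those of RefSeq on GRCm38.p6.

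In Δβ, libraries that share a number across the organs deviated together (r of 0.664, 0.608 and 0.634 of the deviations from the group means) but not in WT (-0.00936, -0.039 and -0.237). The pairing rests on the numbers in the labels and these correlations. WT and Δβ libraries of the same number did not deviate together. Alternatives were pseudocounts of 0.25 and 4, no filter, a mean of at least 50, TMM, no trend, edgeR 4.0.16 and DESeq2 1.42.0 on the reads, the 6 libraries compared alone, a replicate block, and each library left out in turn.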

Additional observations from a re-analysis of the deposited data

How the results depend on the processing

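Of the 8 tested genes, the 0 called by limma in each of the 5 comparisons remained 0 under each alternative, with 1 exception, Δβ against WT in SP, where DESeq2 called 1 and leaving out libraries gave 0 to 1, the 1 being Bnip3l (DESeq2, and limma without WT SP replicate 3). Of the 100 pathway genes, DESeq2 called 6 in SP, and leaving out libraries gave 0 to 17 for Δβ against WT in SP and 0 to 4 for SP against BM in WT, both maxima without WT SP replicate 3. Over all genes, the 12 called for Δβ against WT in SP became 1 with a pseudocount of 0.25, 18 with one of 4, 5 without a filter, 2 with a mean of at least 50, 3 with TMM, 3 without trend, 4 with edgeR, 481 with DESeq2, 2 with the 6 libraries alone, 2 with the replicate block and 1 to 1884 with a library left out, the highest without WT SP replicate 3. The 8 called in BM became 5 without trend, 37 with DESeq2, 3 with the 6 libraries alone, 5 with the replicate block and 1 to 13 with a library left out. For SP against BM in WT, the 0 became 106 with DESeq2 and 0 to 598 with a library left out, the highest without WT SP replicate 3. DESeq2 called 2 genes for SP against BM in Δβ and 3 for the interaction. The replicate block changed no call among the 8 genes or the pathway lists.

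Of 544 recomputed log2 fold changes in the 25 pairs of gene and comparison recomputed for the text, 525 kept their sign and side of the threshold, 2 (Bnip3l in SP) newly passed it and 17 changed sign, the cause of which was not tested. Hif1a in SP was 0.011 with edgeR and -0.17 to 0.15 with a library left out. Bnip3l in BM was 0.0104 with edgeR, 0.00478 with DESeq2 and -0.21 to 0.13 with a library left out. The other sign changes in these 25 pairs came with a library left out, over ranges of -0.26 to 0.46 for Vegfa and -0.53 to 0.27 for Ankrd37 in SP, -0.0761 to 0.19 for Hif1a, -0.195 to 0.00346 for Egln1 and -0.57 to 0.35 for Ddit4 in BM, and -0.93 to 0.0301 for the interaction of Egln3. Over all 40 pairs of gene and comparison, 38 of 867 changed sign, the further ones in the comparisons of SP with BM and in the interaction. Ankrd37 could not be fitted with a mean of at least 50, which it did not reach. A group with a library left out has 2 libraries. Egln3 and Ankrd37 had the fewest reads, with 15 to 188 and 23 to 64 per library, and Egln3 and Ddit4 the largest standard errors, 0.57 and 0.53.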
